A study of Mus musculus with 32 samples.

Results

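The genes that build ribosomes, together with Myc, were followed across 32 mouse kidneys. The set held 47 genes, chosen as listed mouse symbols whose Ensembl identifiers occurred among the 53700 genes of the raw count table. All 47 were found, and all 47 passed the filter on low counts that left 13961 genes for testing. They were Myc, 3 RNA polymerase I subunits, 16 components of the small-subunit processome, 6 core proteins of small nucleolar ribonucleoproteins (snoRNPs), 5 nucleolar chaperones and rDNA factors, 11 factors of 60S subunit assembly and 5 of late 40S maturation.

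Ribosome production starts in the nucleolus, where RNA polymerase I transcribes a long precursor of the ribosomal RNAs. The small-subunit processome folds and cuts the precursor at its small-subunit end, snoRNPs guide its methylation and pseudouridylation, and separate sets of factors then mature the large and small subunits. MYC is a transcription factor that binds E-box DNA with its partner MAX, and genes of ribosome production are among its best known targets in growing cells. Cyst growth in polycystic kidney disease involves proliferation of the tubule epithelium, and transgenic MYC in mouse kidney is known to give cysts.

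All mice were male C57BL/6 iKspCre-Pkd1del animals, which carry a kidney-specific, tamoxifen-inducible Cre and loxP sites around part of Pkd1. The 12 PKD kidneys came from mice gavaged with 150 mg/kg tamoxifen on postnatal days 18 and 19 and collected at 95 days. The 12 PKD + Salsalate kidneys came from mice that had the same deletion and also ate chow with 2.5 g/kg salsalate, a salicylate prodrug that activates AMPK, from day 81 for 2 weeks. The 8 wildtype kidneys came from mice of the same line that received no tamoxifen and were collected at 109 days, so that deletion, tamoxifen and age cannot be told apart in any comparison with wildtype. The Cre promoter is active in tubule epithelium, so other kidney cells kept Pkd1, and the study kept for sequencing cystic mice with a mild phenotype.

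The names of wildtype replicates 1 to 5 end in R, an ending found in no other library, and those of replicates 6 to 8 do not. What the ending marks is not given in the sources used here, and each comparison with wildtype is therefore given for both sets. Counts on genes ranged from 11193136 to 109807664 per library. The share of reads outside annotated exons was 13.2 to 15.7% in the wildtype set ending in R, 7.60 to 9.77% in the set without the ending, 7.65 to 16.4% in PKD and 7.87 to 11.9% in PKD + Salsalate. Pkd1 itself was 0.42 log2 units higher in PKD than in wildtype (SE 0.11, adjusted p = 0.00134), and since the deletion removes only some exons its summed count checks the labels little. One PKD kidney, replicate 10, stood apart by liver markers, which summed to 5703 CPM where the PKD median was 166. Leaving it out moved no count of members given here by over 1.5 times except the salsalate count, treated below.

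Levels are given as CPM, the read count of a gene relative to the library total scaled by TMM factors for composition, and a gene was called when edgeR's quasi-likelihood test gave an adjusted p under 0.05 over all 13961 genes. Per kilobase of exon, Npm1 had the highest mean wildtype level of the 47 at 35.6 CPM per kb, followed by Nhp2 at 33.5 and Ncl at 32.2. Wdr12 was lowest at 1.35 CPM per kb, below Rrp15 at 1.49 and Myc at 1.65. The length took all annotated exons of a gene merged, 12766 bases for Wdr12 and 2730 for Myc. In CPM, with no division by length, Myc had the lowest wildtype mean at 4.51, below Rrp15 at 11.9. In bulk kidney, fewer cells of a type and less RNA per cell cannot be told apart.

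Myc was the member that separated cystic from wildtype kidneys most. Its level in the wildtype kidneys ending in R was 5.40, 2.98, 6.38, 4.69 and 2.66 CPM, and in those without the ending 4.81, 3.87 and 5.26 CPM. In the 12 PKD kidneys it ran from 7.54 to 16.5 CPM with a median of 10.7, and in the 12 PKD + Salsalate kidneys from 7.61 to 17.7 CPM with a median of 8.62. Every kidney with the deletion was above every wildtype kidney of both sets, while the untreated and treated cystic kidneys overlapped through nearly their whole ranges. Myc exceeded wildtype in PKD by 1.36 on the log2 scale (SE 0.19, adjusted p = 3.04e-07), a 2.57-fold higher level. It was 1.41 (SE 0.23, adjusted p = 3.49e-06) beside the set ending in R and 1.31 (SE 0.27, adjusted p = 0.000216) beside the set without the ending. The wildtype sets themselves differed in Myc by 0.10 (95% interval -0.51 to 0.72, adjusted p = 0.802). Myc lies on chromosome 15 from 61857227 to 61862223 on the plus strand (GRCm39, ENSMUSG00000022346), and its lowest count in any kidney was 35 reads.

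With salsalate, Myc was 0.20 log2 units below PKD (SE 0.15, 95% interval -0.51 to 0.11, adjusted p = 0.736), and 3 of the 12 treated kidneys lay above the PKD median. The treated kidneys still exceeded wildtype by 1.16 (SE 0.18, adjusted p = 5.62e-06), by 1.21 (SE 0.23) against the set ending in R and by 1.10 (SE 0.26) against the other set. Among untreated and among treated cystic kidneys Myc varied most of the 47 members, the SD of its log2 CPM being 0.34 and 0.41, where the median member had 0.13 in both groups.

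**Figure D1:**
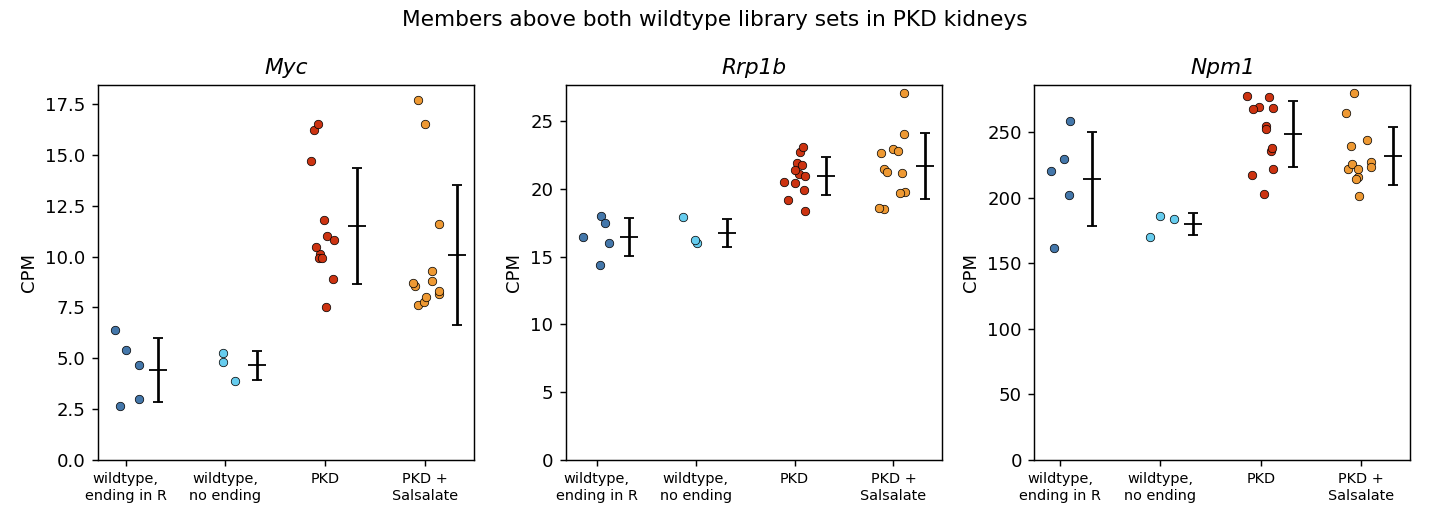
Level in CPM (vertical axes, starting at 0) of Myc, Rrp1b and Npm1 in each kidney (points) of the wildtype set ending in R, the wildtype set without the ending, PKD and PKD + Salsalate, with the mean and SD beside each group. Myc and Rrp1b were higher in all 12 PKD kidneys than in all 8 wildtype kidneys, and for Npm1 the PKD kidneys overlapped only the wildtype set ending in R.

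The ribosome production genes did not rise with Myc as a set. Between PKD and all wildtype kidneys, 5 of the 47 members were called higher and 8 lower, where 24.1% of all tested genes were called higher and 25.0% lower. The median log2 fold change of the 47 was -0.04, beside -0.01 over all genes tested. The members called higher were Myc, Polr1b, Npm1, Ddx21 and Rrp1b, and those called lower were Utp20, Rrp9, Bms1, Dkc1, Nhp2, Ncl, Pes1 and Ddx18. Rrp9 was called against neither wildtype set taken alone. The 34 members not called had log2 fold changes from -0.26 (Nop56) to 0.15 (Utp15). Myc and Rrp1b alone had PKD and wildtype ranges that did not overlap, while 5.21% of all genes lay wholly above and 2.07% wholly below wildtype.

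Which wildtype libraries served as reference changed this picture. Against the set ending in R, 7 members were called higher and 19 lower in PKD, beside 31.0% and 29.3% of all genes. Against the set without the ending, 9 were called higher and 3 lower, beside 20.9% and 18.5%. The median log2 fold change of the 47 was -0.14 in the first comparison and 0.09 in the second, beside 0.01 over all genes in both. Both comparisons used the same 12 PKD kidneys and are not independent, so joint calls are given only beside the share over all genes. Against both sets 3 members were higher and 1 lower, beside 11.4% and 7.79% of all genes. Against the set ending in R, 6 were lower that were higher against the other set, beside 2.76%. The reverse held for 1, beside 3.24%. For PKD + Salsalate the counts were 7 higher and 19 lower against the set ending in R, beside 29.8% and 28.8% of all genes, and 7 higher and 3 lower against the other set, beside 17.8% and 15.7%. Against all wildtype kidneys 6 were higher and 9 lower, beside 21.8% and 23.2%. The 9 became 5 without wildtype replicate 3, 14 without replicate 6 and 15 without replicate 7 or 8, and 5 with limma-voom, with no filter or with wildtype in 2 groups.

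The contrast between the wildtype sets tested this dependence directly. In the set without the ending, 3 members were higher (Utp20, Nol6 and Bop1) and 19 were lower than in the set ending in R, beside 23.7% and 24.4% of all genes. The median log2 difference of the 47 was -0.15, beside -0.02 over all genes. The sets differed in the share of reads outside exons, as given above. Counts on genes ran from 11278382 to 16473782 in the set ending in R and from 17011675 to 28290874 in the other. Reads without a unique alignment made up 8.88 to 9.82% and 7.76 to 8.13% of the libraries of these sets. Of 8 proximal tubule markers, 7 were higher in the set without the ending (median log2 difference 0.80). The part of these differences in the members' levels was not tested.

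**Figure D2:**
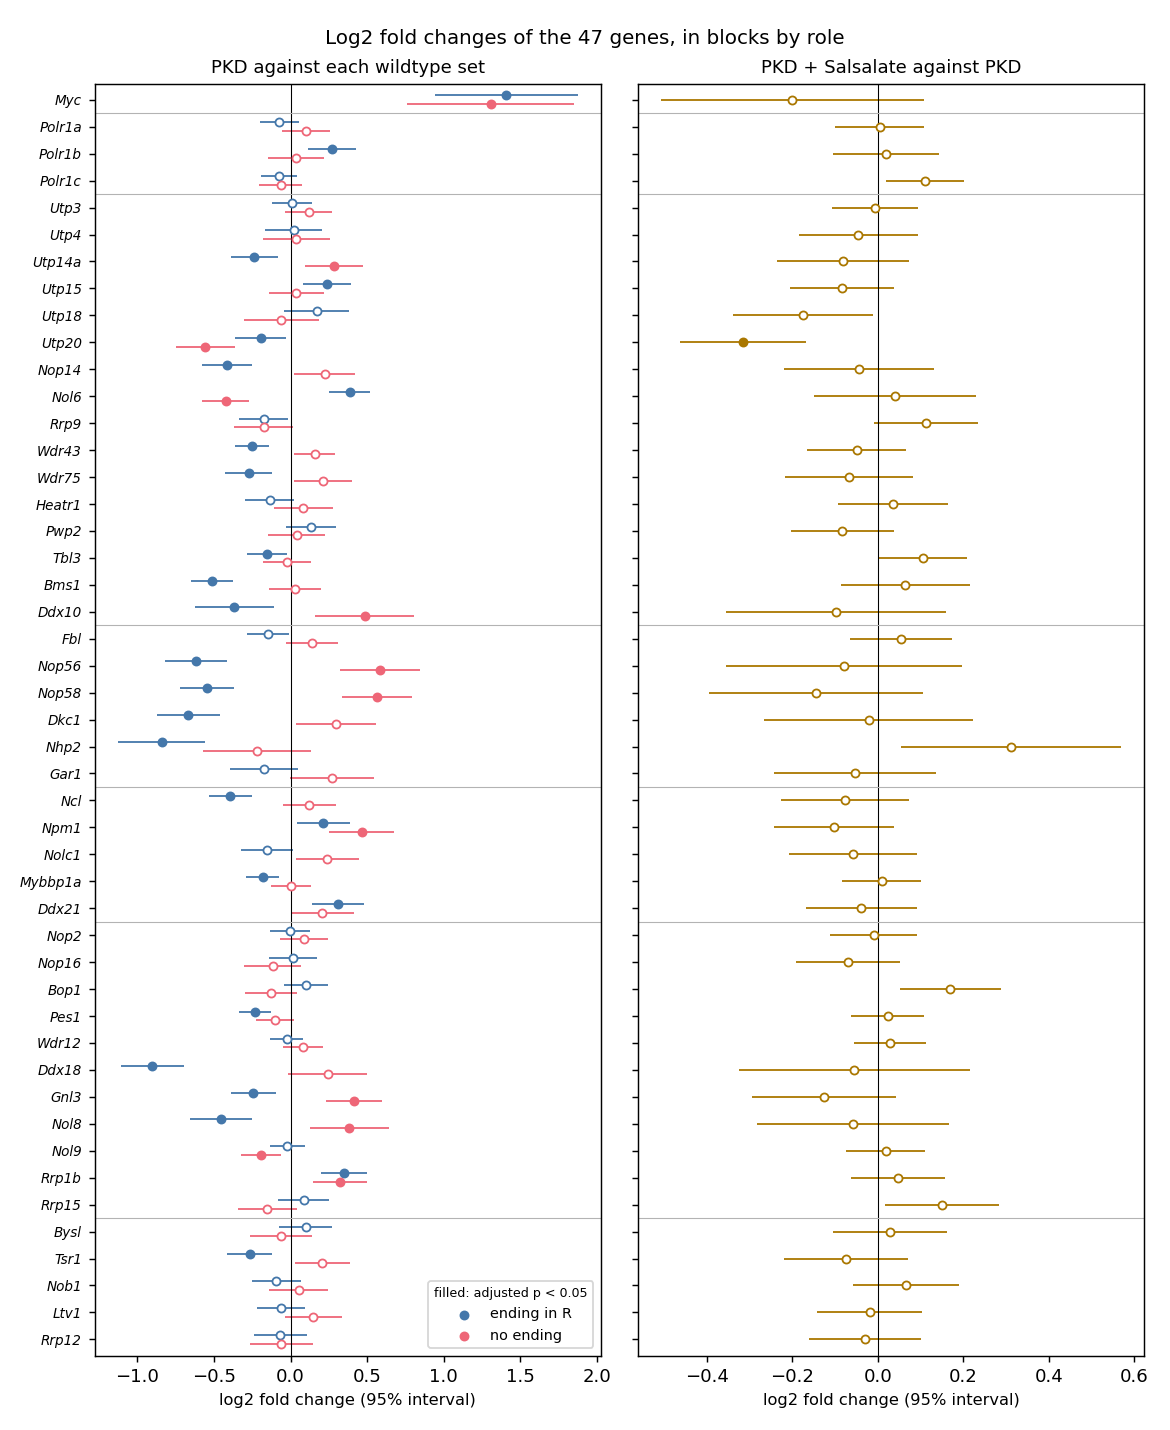
Log2 fold change with its 95% interval (horizontal axes) for each of the 47 genes (rows, in blocks by role), on the left for PKD against the wildtype set ending in R (blue) and against the set without the ending (red), on the right for PKD + Salsalate against PKD. Filled points have an adjusted p under 0.05; Myc is alone at the far right of the left panel, Nop56 and Nop58 have filled points on both sides of 0, and Utp20 is the only filled point on the right.

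Of the RNA polymerase I subunits, Polr1b, the second largest, was 0.17 log2 units higher in PKD than in wildtype (SE 0.07, adjusted p = 0.0374). It measured 20.3 ± 2.01 CPM in the wildtype set ending in R (SD, n = 5), 23.9 ± 1.58 in the set without the ending (SD, n = 3) and 24.5 ± 1.96 in PKD (SD, n = 12). The difference was 0.27 against the first set (adjusted p = 0.00311) and 0.03 against the second (adjusted p = 0.783), and the PKD range of 21.4 to 28.3 CPM overlapped both. The call over all wildtype kidneys was lost in 8 of the 32 fits that left out 1 kidney, without wildtype replicate 2, 3, 4 or 5, untreated PKD replicate 7, 11 or 12, or treated replicate 4. Polr1c, shared with RNA polymerase III, had 55.6 ± 4.19 CPM in wildtype (SD, n = 8) and 53.0 ± 3.76 in PKD, with a log2 difference of -0.07 (SE 0.05, adjusted p = 0.25). Polr1a, the largest subunit, differed by -0.01 (SE 0.06, adjusted p = 0.925).

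In the small-subunit processome, none of 16 members were called higher and 3 lower in PKD against all wildtype kidneys. Utp20, a large HEAT-repeat scaffold protein, was the only member called lower in PKD against both wildtype sets, beside 7.79% of all genes. Its level was 58.9, 50.2, 46.5, 52.3 and 48.6 CPM in the wildtype kidneys ending in R and 57.0, 78.2 and 62.9 CPM in the others. PKD kidneys ran from 37.9 to 53.0 CPM with a median of 44.2, and PKD + Salsalate kidneys from 31.3 to 42.5 CPM with a median of 35.9. The treated kidneys were all below every wildtype kidney, and all 12 were also below the PKD median. PKD differed from wildtype by -0.34 on the log2 scale (SE 0.08, adjusted p = 0.000662), by -0.19 against the set ending in R (SE 0.08, adjusted p = 0.0401) and by -0.56 against the other set (SE 0.09, adjusted p = 2.1e-05). The wildtype sets differed by 0.36 (SE 0.11, adjusted p = 0.00719).

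Utp20 was also the only member called between PKD + Salsalate and PKD. It was lower in treated kidneys, with a log2 fold change of -0.32 (SE 0.07, 95% interval -0.46 to -0.17, adjusted p = 0.0301), a ratio of 0.803. Across all genes 0.251% were called higher and 0.329% lower with salsalate, and of the 47 members 0 were higher and 1 was lower. The call was close to the threshold. It was lost in 9 of 32 fits that left out 1 kidney, namely any of the untreated replicates 1, 5, 10 and 11 or the treated replicates 4, 5, 7, 8 and 10, while the log2 fold change in the 32 fits ran from -0.34 to -0.29 and the adjusted p from 0.0109 to 0.0646. It was also lost with no filter on low counts (adjusted p = 0.0599), while DESeq2 and limma-voom gave 0 members higher and 1 lower. Utp20 lies on chromosome 10 from 88582469 to 88662699 on the minus strand (GRCm39, ENSMUSG00000004356).

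**Figure D3:**
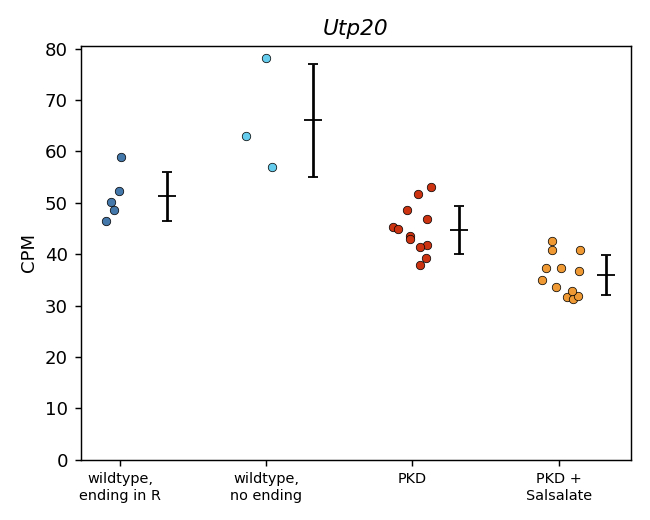
Level of Utp20 in CPM (vertical axis, starting at 0) in each kidney (points) of the 2 wildtype sets, PKD and PKD + Salsalate, with the mean and SD beside each group. The treated kidneys sit between 31.3 and 42.5 CPM, all below the wildtype kidneys and partly overlapping the PKD kidneys at 37.9 to 53.0 CPM.

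Other processome members moved with the wildtype set. Nol6, which helps assemble the U3-containing precursor particle, had 28.8 ± 1.89 CPM in the set ending in R (range 26.5 to 31.0), 50.6 ± 2.16 in the set without the ending (49.0 to 53.1), 37.6 ± 3.17 in PKD (32.5 to 42.3) and 38.8 ± 3.31 in PKD + Salsalate (34.3 to 43.8). All cystic kidneys lay between the wildtype sets, above one and below the other. PKD differed from the first set by 0.39 (SE 0.07, adjusted p = 7.97e-06) and from the second by -0.42 (SE 0.07, adjusted p = 3.47e-05), and the sets differed by 0.81 (SE 0.09, adjusted p = 1.26e-08). Utp14a, needed for the early cuts of the precursor, showed the opposite arrangement, with 28.4 ± 3.19, 19.8 ± 1.25 and 24.1 ± 2.74 CPM in the set ending in R, the other set and PKD. The RNA helicase Ddx10 followed Utp14a with 26.3 ± 7.25, 14.4 ± 3.65 and 20.4 ± 4.11 CPM. Utp15, with the highest fold change of the processome, had 12.9 ± 1.52 CPM in wildtype and 14.3 ± 1.32 in PKD (log2 difference 0.15, SE 0.07, adjusted p = 0.0582). It was called with upper-quartile factors (adjusted p = 0.0226) and in 6 of the 32 fits that left out 1 kidney. Bms1, a GTPase of the processome, was lower in PKD than the set ending in R by a log2 change of -0.51 (SE 0.07, adjusted p = 1.12e-07) and differed from the other set by 0.03 (SE 0.08, adjusted p = 0.802).

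The snoRNP core proteins depended most on the wildtype set. All 6 were lower in the wildtype set without the ending than in the set ending in R, with a median log2 difference of -0.79. Nop56, a scaffold of the box C/D particles that guide RNA methylation, had 87.8, 60.7, 59.2, 57.7 and 71.1 CPM in the kidneys ending in R and 29.7, 27.4 and 30.6 CPM in the others. Its PKD kidneys ran from 34.7 to 62.5 CPM with a median of 43.7 and its treated kidneys from 35.6 to 49.6 with a median of 41.0. The cystic kidneys lay above all wildtype kidneys without the ending, and below all those with it except for PKD replicate 4. The log2 fold change of PKD was -0.62 (SE 0.10, adjusted p = 3.08e-06) against the set ending in R and 0.59 (SE 0.13, adjusted p = 0.000509) against the other. Its partner Nop58 had 45.7 ± 7.94 CPM in the set ending in R, 21.1 ± 2.11 in the set without, 31.4 ± 4.59 in PKD and 28.3 ± 2.05 in PKD + Salsalate, with log2 fold changes of PKD of -0.54 (SE 0.09) and 0.56 (SE 0.11). Dkc1, the pseudouridine synthase of box H/ACA particles, changed in PKD by -0.37 over all wildtype kidneys (adjusted p = 0.0233), by -0.67 (adjusted p = 1.16e-06) against the set ending in R and by 0.30 (adjusted p = 0.0646) against the other.

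Nhp2, a small RNA-binding protein of the box H/ACA particles, had the lowest fold change of the 47 over all wildtype kidneys. Wildtype kidneys ending in R ran from 95.1 to 181.8 CPM, those without the ending from 83.8 to 106.1, PKD kidneys from 51.2 to 107.1 and treated kidneys from 67.0 to 139.4 CPM. All of these ranges overlapped. The log2 fold change of PKD was -0.64 (SE 0.14, adjusted p = 0.000348), -0.84 against the set ending in R (adjusted p = 5.57e-06), and -0.22 beside the other set (adjusted p = 0.326). With salsalate Nhp2 was 0.31 above PKD, with 11 of 12 treated kidneys above the PKD median, and this did not pass over all genes (SE 0.13, adjusted p = 0.324). Gar1, another H/ACA protein, had 13.2 ± 2.39 CPM in wildtype and 13.1 ± 2.63 in PKD. About 25.2% of the exon bases of Nhp2 and 49.1% of those of the 40S factor Tsr1 also lie in a gene on the other strand, and the deposited counts were made by strand.

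Among nucleolar chaperones and rDNA factors, Npm1 and Ddx21 were called higher and Ncl lower in PKD over all wildtype kidneys. Npm1, the histone and ribosome chaperone nucleophosmin, had 258, 162, 220, 230 and 202 CPM in the wildtype kidneys ending in R and 184, 170 and 186 CPM in the others. PKD kidneys ran from 203 to 277 CPM with a median of 253 and treated kidneys from 201 to 280 with a median of 225. The cystic kidneys lay above all wildtype kidneys without the ending and overlapped those with it. The PKD log2 fold change was 0.30 (SE 0.08, adjusted p = 0.00171), 0.21 (adjusted p = 0.0291) against the set ending in R and 0.47 (adjusted p = 0.000613) against the other. Treated kidneys exceeded the set ending in R by 0.11 (adjusted p = 0.256). Ddx21, an RNA helicase tied to RNA polymerase I transcription, had 53.9 ± 7.07 CPM in wildtype and 65.0 ± 9.30 in PKD, a log2 difference of 0.27 (SE 0.07, adjusted p = 0.00267). PKD was called higher against the set ending in R (52.5 ± 8.50 CPM) and was not called against the other (56.3 ± 4.13 CPM). Nucleolin (Ncl) had 373 ± 71.2, 261 ± 13.3 and 284 ± 20.9 CPM in the set ending in R, the other set and PKD. Its PKD log2 fold change of -0.22 (SE 0.08, adjusted p = 0.0249) was -0.39 (adjusted p = 1.06e-05) and 0.12 (adjusted p = 0.263) against these sets, and the pooled call was lost without wildtype replicate 1 or 5 (highest adjusted p 0.141).

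Of the 60S assembly factors, Rrp1b, a nucleolar protein with a role in large-subunit processing, was, with Myc, above wildtype in every PKD kidney. It had 18.0, 17.5, 14.4, 16.0 and 16.4 CPM in the wildtype kidneys ending in R and 16.0, 16.2 and 17.9 in the others. PKD kidneys ran from 18.3 to 23.1 CPM and treated kidneys from 18.5 to 27.0 CPM, and neither group overlapped the wildtype kidneys. The log2 fold change of PKD was 0.34 (SE 0.06, adjusted p = 3.6e-05), 0.35 against the set ending in R and 0.32 against the other. The RNA helicase Ddx18 was the lowest of this role, with 81.3 ± 14.7 CPM in the set ending in R, 36.7 ± 1.82 in the set without, 43.6 ± 8.43 in PKD and 41.9 ± 3.42 in PKD + Salsalate. Its PKD log2 fold change of -0.56 (SE 0.15, adjusted p = 0.00198) was -0.90 (SE 0.10, adjusted p = 4.07e-09) against the first set and 0.24 (SE 0.13, adjusted p = 0.132) against the second, and the sets differed by -1.14 (SE 0.15, adjusted p = 2.58e-07). Gnl3, the nucleolar GTPase nucleostemin, and Nol8 were called lower against the set ending in R, by log2 changes of -0.24 and -0.45, and higher against the other set, by 0.41 and 0.38. The PeBoW complex, which processes the large-subunit RNA, gave log2 fold changes of -0.18 for Pes1 (SE 0.05, adjusted p = 0.00167), 0.01 for Bop1 (adjusted p = 0.913) and 0.02 for Wdr12 (adjusted p = 0.813). These values pooled all wildtype kidneys. Pes1 was called lower against the set ending in R and was not called against the other.

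None of the 5 late 40S factors were called between PKD and all wildtype kidneys by edgeR, and 0 had an unadjusted p under 0.05. Bysl, which acts with Ltv1 and Rrp12 in precursor release, had 19.1 ± 2.72 CPM in wildtype and 19.6 ± 1.96 in PKD. Tsr1, a GTPase-like factor of the cytoplasmic precursor, had 25.1 ± 3.95, 18.1 ± 1.57 and 20.8 ± 1.58 CPM in the set ending in R, the other set and PKD, with log2 fold changes of -0.27 (adjusted p = 0.00179) and 0.21 (adjusted p = 0.0578). Nob1, the nuclease that makes the last cut of the small-subunit RNA, differed from wildtype by -0.04 (SE 0.07, adjusted p = 0.677).

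**Figure D4:**
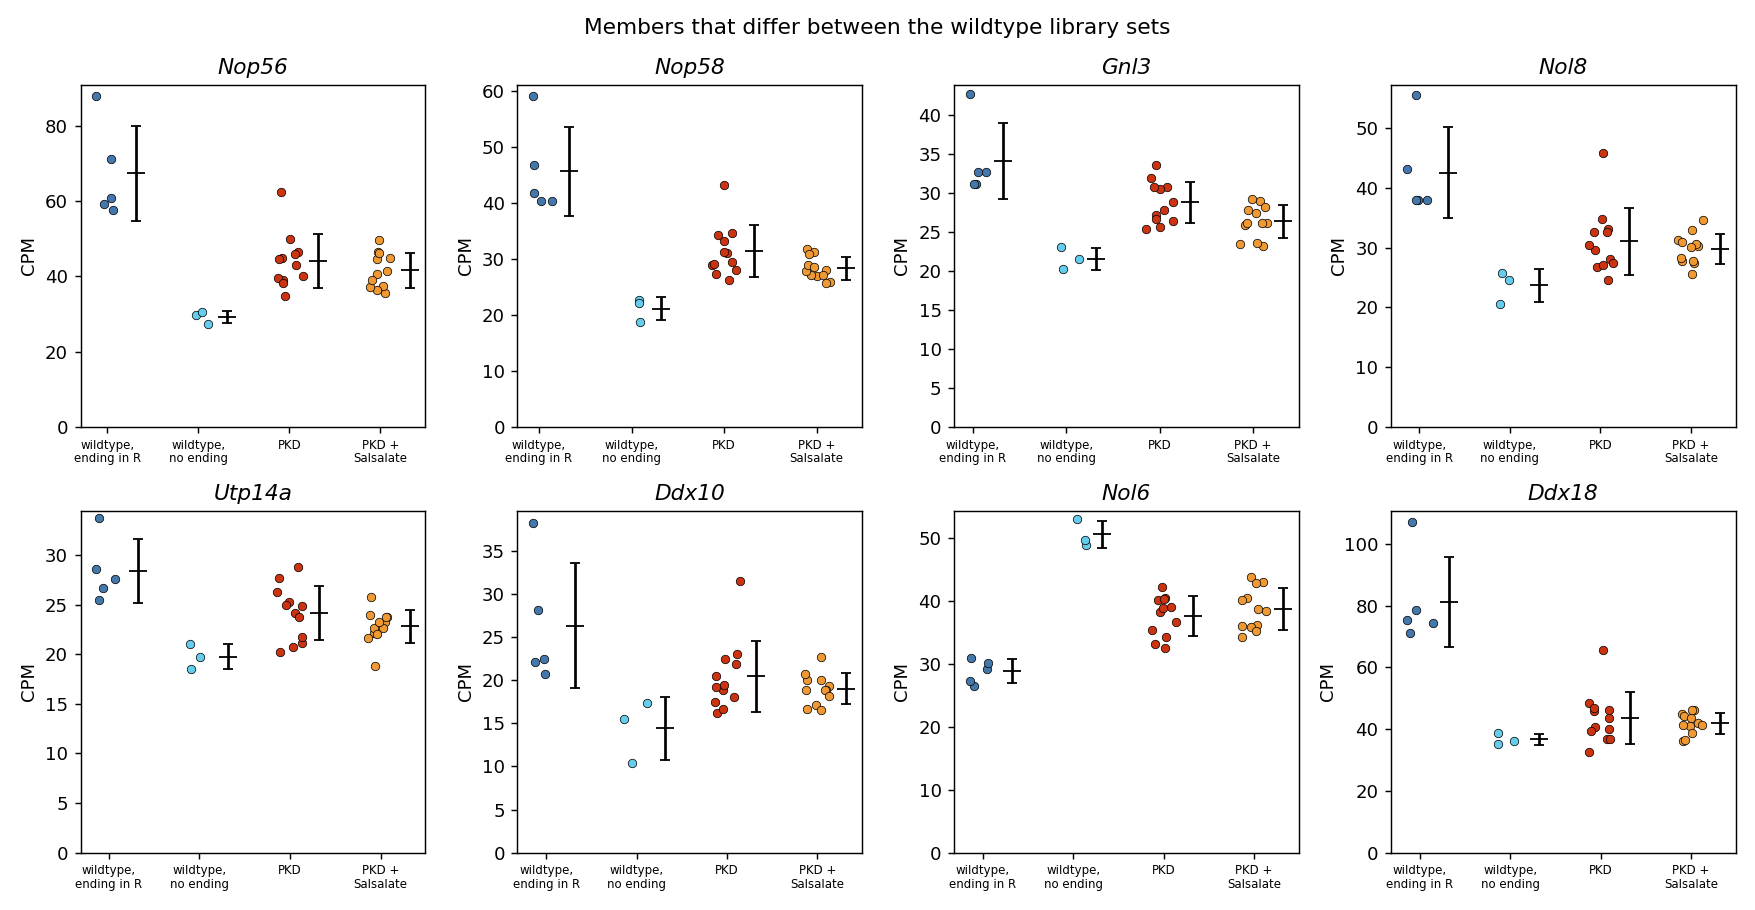
Level in CPM (vertical axes, starting at 0) of 8 genes in each kidney (points) of the 2 wildtype sets, PKD and PKD + Salsalate, with the mean and SD beside each group. For Nop56, Nop58, Gnl3, Nol8, Utp14a and Ddx10 the PKD mean lies below the wildtype set ending in R and above the set without the ending, Nol6 has the reverse order, and for Ddx18 PKD lies near the set without the ending.

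The same kidneys stood high or low for several of these genes at once. Among the 12 PKD kidneys, replicate 4 had the largest share of reads outside exons, 16.4%, and the fewest counts on genes, 11193136. It had the highest level of 12 of the 19 members that were lower in the wildtype set without the ending. Its ribosomal protein genes summed to 40857 CPM, the highest of the group, and lay near the wildtype median of the set ending in R, 40449 CPM. Replicate 2 had the smallest share outside exons, 7.65%, and the most counts on genes, 47213530. It had the lowest level of 7 of the 19 and the lowest ribosomal protein sum, 19665 CPM. The read share and the library size cannot be told apart in these kidneys, and their part in these levels was not tested. Without PKD replicate 4, 7 members were called higher and 21 lower against the set ending in R, and 10 higher and 3 lower against the other set.

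Small nucleolar RNA genes lie in introns of several members, so these transcripts carry both a protein message and guide RNAs. In the GENCODE M39 annotation, 7 of the 47 had at least 1 such gene inside them on the same strand, namely Nop56, Nop58, Dkc1, Ncl, Gnl3, Wdr43 and Tsr1. All 7 were lower in the wildtype set without the ending, with log2 differences from -1.20 to -0.41 and a median of -0.66. Of the 40 others, 12 were lower and 3 higher, with a median of -0.11. The 10 non-coding snoRNA host transcripts listed beside the members gave 9 lower between these sets (median -0.77).

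E-box letters were sought in promoter windows of RefSeq (build GRCm38.p6), which hold 250 bases before and 50 after each start. Windows were matched for 40 of the 47 members, the others being Myc, Npm1, Fbl, Nol6, Tbl3, Bop1 and Rrp12. The motif searched was CACGTG, which reads the same on both strands. It occurred in 9 of the 40 genes (22.5%), beside 11.5% of 10460 tested genes with a window and 8.09% of all 27025 genes with a window. Counted by window, it occurred in 20.45% of the 44 member windows, beside 7.15% of all 32851 windows. The 9 stretches are shown because they carry the letters that MYC and MAX bind, with the motif in capitals and its flanks of up to 12 bases in lower case, 5′ to 3′ on the gene's strand.
Ltv1: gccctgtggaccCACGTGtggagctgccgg
Mybbp1a: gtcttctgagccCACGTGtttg
Nop2: gtgtccctggatCACGTGtgttccggtgcc
Pes1: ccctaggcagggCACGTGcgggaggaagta
Tsr1: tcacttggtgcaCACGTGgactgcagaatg
Utp18: gcgagcgccggtCACGTGgcttgcggcggc
Utp20: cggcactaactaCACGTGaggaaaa
Utp4: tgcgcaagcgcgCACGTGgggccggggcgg
Wdr43: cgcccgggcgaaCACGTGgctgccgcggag
In 7 of the 9 the motif started after the annotated start, from base 3 in Pes1 to base 41 in Mybbp1a, and in Nop2 and Utp18 it started 60 and 20 bases before it. None of the 9 genes were called higher in PKD over all wildtype kidneys, and Utp20 and Pes1 were called lower. Over all tested genes 24.1% were called higher and 25.0% lower in the same comparison.

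The window of Utp20 is given whole, as the promoter of the only member called with salsalate, chr10:88826765-88827064 on the minus strand of GRCm38.p6, with the motif in capitals.
Utp20 promoter: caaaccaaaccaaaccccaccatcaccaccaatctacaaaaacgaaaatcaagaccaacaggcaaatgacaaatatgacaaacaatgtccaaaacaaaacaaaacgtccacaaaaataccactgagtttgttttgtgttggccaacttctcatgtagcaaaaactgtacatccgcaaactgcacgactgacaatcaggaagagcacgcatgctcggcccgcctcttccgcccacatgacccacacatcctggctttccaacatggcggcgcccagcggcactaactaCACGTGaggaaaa
These are matches of letters only and say nothing of binding in the kidney.

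Myc and the other members were also compared kidney by kidney. Over the 12 PKD kidneys the median Pearson r between log2 CPM of Myc and each of the other 46 members was -0.02, beside 0.04 over all other genes, and over the 12 PKD + Salsalate kidneys it was -0.05, beside 0.01. Of the 92 relations none passed the permutation test after adjustment by Pearson or Spearman, and 11 in PKD and 4 in PKD + Salsalate had an unadjusted permutation p under 0.05. The largest absolute values of r in PKD were negative, for Utp14a (r = -0.78, rho = -0.58, permutation p = 0.00266 and 0.0524, adjusted 0.0816 and 0.679), Ddx18 (r = -0.77, rho = -0.52, permutation p = 0.00241 and 0.0842, adjusted 0.0816 and 0.684) and Nol8 (r = -0.77, rho = -0.62, permutation p = 0.00235 and 0.0376, adjusted 0.0816 and 0.679). The highest positive r was that of Utp18 (r = 0.75, rho = 0.57, permutation p = 0.00475 and 0.0582, adjusted 0.109 and 0.679). Without the 2 kidneys farthest from the Myc median these were -0.60, -0.78, -0.72 and 0.67. Leaving out these 2 kidneys moved the median over the 46 members to -0.25 in PKD and 0.25 in PKD + Salsalate, so the medians near 0 rest on them. In PKD + Salsalate Utp14a and Utp18 had r = 0.32 and r = -0.10. Utp14a, Ddx18 and Nol8 were also among the 19 members lower in the wildtype set without the ending, and Utp18 was not. The part of differences between libraries in these relations was not tested.

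The wider ribosome genes gave counts that also turned with the wildtype set. Of 78 tested ribosomal protein genes, 1 was higher and 60 were lower in PKD against the set ending in R (median log2 fold change -0.57), while 19 were higher and none lower against the other set (median 0.25). Over all wildtype kidneys 3 were higher and 37 lower, among them Rpl36 at -1.28 (SE 0.21) and Rps29 at -1.21 (SE 0.21) as the lowest and Rps10 at 1.04 (SE 0.21) and Rpl15 at 0.18 (SE 0.06) as the highest. Rpl36, Rps29 and Rps10 were not called against the set without the ending (edgeR, adjusted p = 0.933, 0.352 and 0.124). Ribosomal protein genes have many near-identical copies, so their single values are uncertain. With salsalate none of the 78 were called, 3 had an unadjusted p under 0.05, and their median was 0.09. Of 67 other ribosome assembly factors, 6 were higher and 36 lower against the set ending in R, and 5 were higher and 2 lower against the other. Rcl1, a processome factor, was lower in both, by log2 changes of -0.51 (adjusted p = 0.00903) and -0.61 (adjusted p = 0.0129). Ddx52 at -0.38 was the other lowest of this list over all wildtype kidneys, and Urb2 at 0.28 and Rsl24d1 at 0.25 were the highest. Against the set ending in R they differed by -0.58, 0.43 and 0.37, all called. Against the other set they differed by 0.01, 0.09 and 0.08, and none was called. Of 12 other RNA polymerase I factors, 1 was higher and 8 lower, then 2 higher and none lower, with Taf1d, of the promoter factor SL1, at -1.33 (adjusted p = 5.54e-09) and 0.48 (adjusted p = 0.0537). Polr1f at -0.45 was the next lowest over all wildtype kidneys, and Polr1d at 0.11 and Polr1e at 0.01 were the highest. Polr1f was called lower against the set ending in R (-0.78, edgeR, adjusted p = 8.3e-08) and higher against the other (0.33, adjusted p = 0.0432). No gene of either list was called with salsalate by edgeR, where 2 assembly factors and 1 RNA polymerase I factor had an unadjusted p under 0.05.

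**Figure D5:**
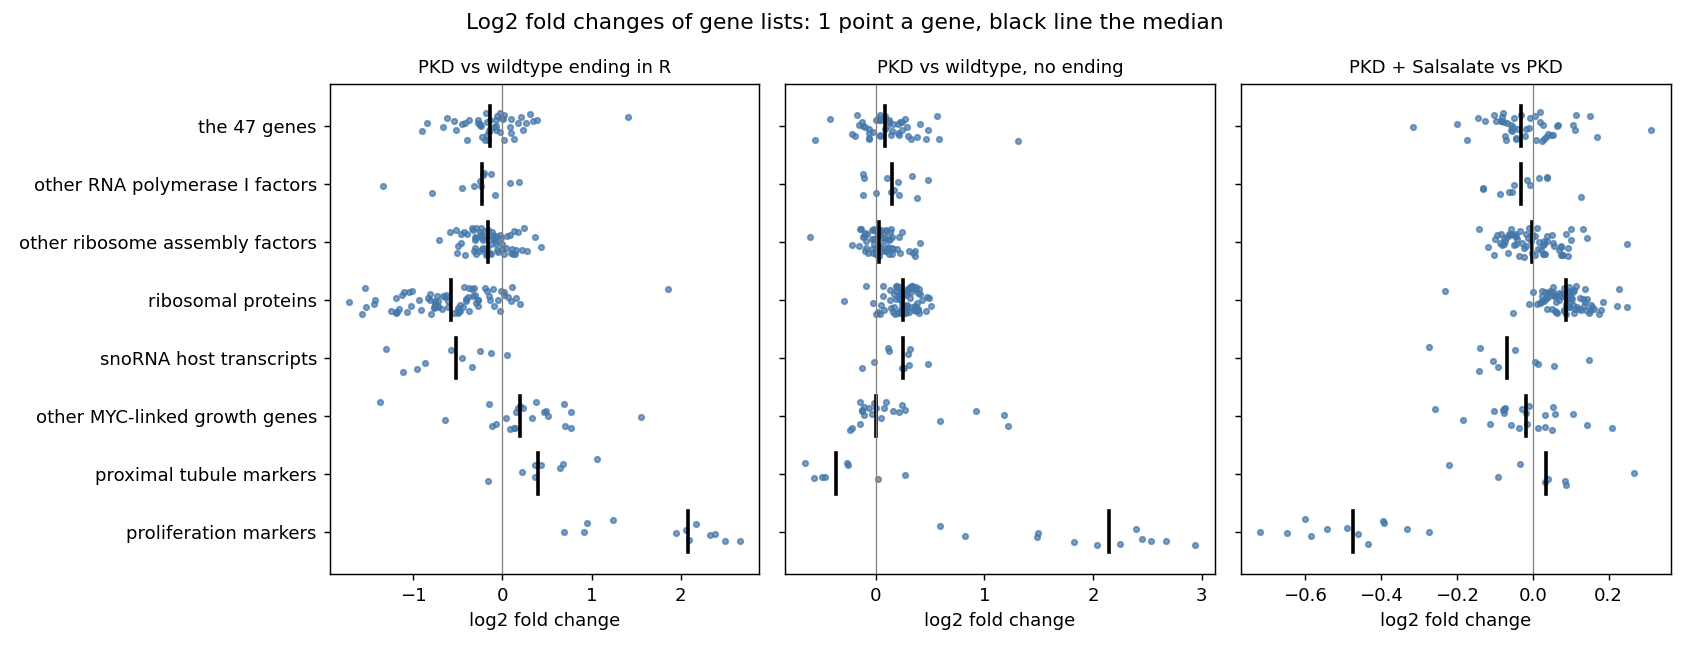
Log2 fold change (horizontal axes) of each gene (points) of 8 lists (rows), with the list's median as a black line, for PKD against the wildtype set ending in R, PKD against the set without the ending, and PKD + Salsalate against PKD. Ribosomal protein genes have medians of -0.57, 0.25 and 0.09, and proliferation markers have 2.08, 2.14 and -0.47.

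The partners of MYC and other growth genes linked to it changed one by one. Of 13 genes of the MYC and MAX network, 4 were higher and 1 lower in PKD over all wildtype kidneys, with a median of 0.09. Over all genes 24.1% were higher and 25.0% lower. Against the set ending in R 4 of the 13 were higher and 3 lower, beside 31.0% and 29.3% of all genes. Against the other set 2 were higher and none lower, beside 20.9% and 18.5%. Mxd3, a MAX partner that represses E-box genes and rises in S phase, was highest at 1.51 (SE 0.19, adjusted p = 9.28e-08), and Mycl followed at 0.54 (SE 0.23, adjusted p = 0.0466). Zbtb17, the MYC partner MIZ1, was lowest at -0.37 (SE 0.07, adjusted p = 9.83e-05), and Max itself differed by -0.14 (SE 0.07, adjusted p = 0.103). Against the set without the ending Mxd3 was called higher (2.16). Mycl (0.40, edgeR, adjusted p = 0.318) and Zbtb17 (-0.20, adjusted p = 0.0885) were not called against it. Of 23 other MYC-linked growth genes, 9 were higher and 1 lower over all wildtype kidneys, with a median of 0.10. Against the set ending in R 13 were higher and 2 lower (median 0.19), and against the other 5 were higher and none lower (median -0.0005). The shares over all genes are those given above. Mthfd2, a mitochondrial folate enzyme, rose by 0.94 (SE 0.13, adjusted p = 3.58e-07), by 0.77 against the set ending in R and 1.22 against the other. The amino acid transporter Slc7a5 was higher by 0.88 (SE 0.18, adjusted p = 0.000108), with 1.55 against the set ending in R and 0.27 against the other (adjusted p = 0.155). The nucleoside diphosphate kinase Nme1 was lowest at -0.98 (SE 0.20), with -1.37 against the set ending in R and -0.03 against the other (adjusted p = 0.92). Ccnd2 was next at -0.28 (SE 0.16, adjusted p = 0.134). Ccnd2 was called lower against the set ending in R (-0.64, edgeR, adjusted p = 3.87e-06) and higher against the other (0.59, adjusted p = 0.00078). No gene of either list was called with salsalate by edgeR, where 1 network gene and 2 growth genes had an unadjusted p under 0.05. Of 10 snoRNA host transcripts none were higher and 5 lower in PKD over all wildtype kidneys, beside 24.1% and 25.0% of all genes. Their values ran from Snhg8 at -0.87 and Snhg3 at -0.78 to Snhg15 at 0.04 and Snhg5 at 0.15. Against the set ending in R none were higher and 7 lower (median -0.51), beside 31.0% and 29.3%. Against the other set 1 was higher and none lower (median 0.25), beside 20.9% and 18.5%.

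Proliferation markers gave a pattern unlike that of the members. All 12 were higher in PKD than in each wildtype set, with medians of 2.08 against the set ending in R and 2.14 against the other, and Mki67 (2.77) and Aurkb (2.47) had the highest and Pcna (0.65) and Mcm2 (0.89) the lowest log2 fold changes over all wildtype kidneys. With salsalate 5 of 12 were lower than in PKD (median -0.47), Mcm2 among them at -0.39 (SE 0.09, adjusted p = 0.0222). In the same comparison the median of the 47 members was -0.03, their log2 fold changes ran from -0.32 to 0.31, and 7 of 47 had an unadjusted p under 0.05, beside 1436 of 13961 over all genes.

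Markers of proliferation, of tubular injury and of several cell types differed between the groups as well. The summed level of 12 proliferation markers was 60.3 to 93.6 CPM in wildtype and 151 to 272 in PKD, that of 5 tubular injury markers 10.5 to 19.6 and 82.2 to 212, that of 11 leukocyte markers 105 to 159 and 236 to 344, and that of 5 fibroblast markers 237 to 332 and 529 to 942. All 5 injury markers, all 7 leukocyte markers tested and all 5 fibroblast markers were higher in PKD over all wildtype kidneys. These counts were 5, 7 and 4 against the set ending in R, and 5, 6 and 4 against the other. The 8 proximal tubule markers, which define the main cell type of kidney cortex, were detected in all groups and summed to 6809 to 9033 CPM in the set ending in R, 12015 to 13872 in the set without the ending and 7835 to 11007 in PKD. None of the genes in these lists were at 0 in every kidney of a group. The part of cell composition in the levels of Myc and the ribosome production genes was not tested.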

How the data were processed

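The authors extracted total RNA from 32 frozen kidneys, prepared directional libraries, trimmed reads with cutadapt 2.10, aligned them to GRCm39 with STAR 2.7.5a and counted them by strand with HTSeq 0.12.4 on Ensembl genes. The deposited values are raw read counts per gene, with no normalization. Lines that name no gene were left out (reads outside exons made up 7.60 to 16.4% of a library), and 0 columns belonged to no sample. The methods' strand setting and the kit's usual strand differ, and 73.6 to 83.1% of reads fell on genes.

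A gene was tested if its log2 CPM exceeded 1 in 25% of libraries or more, which left 13961. Counts were scaled by TMM and tested with edgeR 4.0.16 (quasi-likelihood, R 4.3.3, Benjamini-Hochberg over all genes tested). The 3 groups shared a fit, and a 4-group fit held the wildtype sets apart. The labels name separate animals only by replicate number, so p-values measure the spread between these samples. The numbers do not pair animals: same-numbered PKD and treated kidneys deviated together (r over 0.1) in 2 of 12 pairs. On simulated counts for 13961 genes, 76 of 100 genes changed by 0.5 and 99 of 100 changed by 1 log2 unit were recovered for PKD + Salsalate against PKD, with 8 false of 183 calls. For PKD against wildtype these were 71 and 94, with 9 false of 174, and between the wildtype sets 20 and 84, with 1 false of 105. Each simulation changed only 200 genes and took its spread from the 3-group fit. In the data 24.1% of genes were called higher and 25.0% lower in PKD against wildtype. The recovery rates therefore hold for the simulated setting and do not measure the power of the real comparisons. Symbols, exon lengths and positions came from GENCODE M39 (GRCm39). Correlations used 100000 permutations.

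The alternatives tried were other scalings (size factors as in DESeq2, or upper quartiles), the Wald test of DESeq2 1.42.0, limma-voom (limma 3.58.1), other filters, only the groups compared, a replicate block, wildtype in 2 groups and each kidney left out. Thinning to the smallest library, and the set comparisons without PKD replicates 4 and 10, were added after seeing the data. The members and gene lists were chosen with earlier results of these data known. Genes given in full were Myc, the highest and lowest log2 fold change of each role between PKD and wildtype, members called with salsalate and members called in opposite directions against the wildtype sets. Others are named as examples of their role or, for each list, as its highest and lowest pair.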

Additional observations from a re-analysis of the deposited data

Results flagged for a closer look

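For 22 of the 47 members the difference from PKD depended on which wildtype set, with or without the ending R, served as reference. The contrast between the sets (edgeR, adjusted p under 0.05) tested this directly, with 19 of them lower and 3 higher in the set without the ending. Over all genes 24.4% were lower and 23.7% higher in the same contrast, so the total of 22 is near the background and only its split between lower and higher differs from it, a difference that was not tested. Myc was not among the 22.

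Wildtype replicate 1, of the set ending in R, stood apart from the other 4 libraries of its set for 2 genes. It had 107.1 CPM of Ddx18, where the next highest was 78.7, and 42.7 CPM of Gnl3, where the next highest was 32.7. The gap was large against the range of the 5 libraries. This library also had the highest share of reads outside exons of the wildtype kidneys, 15.7%, and the fewest counts on genes, 11278382. Of 40 groups of values examined in this way, chance flags about 1 in 20.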

How the results depend on the processing

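Myc, Rrp1b, Npm1, Nhp2, Ddx18 and Utp20 kept their direction and their call between PKD and wildtype under all 10 alternatives and in all 32 fits that left out 1 kidney. Every one of these fits kept libraries of both wildtype sets in the reference. Against the set without the ending alone, Nhp2 and Ddx18 were not called, and Ddx18 had the opposite direction. For Myc the log2 fold change ran from 1.31 to 1.39 over the alternatives and from 1.29 to 1.44 over the left-out kidneys. The call of Polr1b did not hold in 6 of the 10 alternatives and 8 of the 32 fits, and that of Ncl did not hold in 3 and 2 (without wildtype replicate 1 or 5).

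The salsalate call of Utp20 held in 8 of 10 alternatives. With no filter on low counts and with the replicate number as a block, 0 members were called lower (adjusted p of Utp20 0.0599 and 0.103; range over the alternatives 0.00768 to 0.103). The replicate block is given here only since the numbers pair no animals. The count was 0 to 1 with a kidney left out, being 0 on removing any of the untreated replicates 1, 5, 10 and 11 or of the treated replicates 4, 5, 7, 8 and 10. Members called lower between PKD + Salsalate and wildtype fell from 9 to 5 with limma-voom, with no filter and with wildtype libraries in 2 groups, and ran from 5 to 15 with a kidney left out (changed without wildtype replicate 3, 6, 7 or 8). Members called higher in PKD + Salsalate against the wildtype set without the ending ran from 3 (without wildtype replicate 7) to 9, and those higher in that set than in the set ending in R from 1 (without replicate 7) to 5 (without replicate 1).

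Calls were also gained between PKD and all wildtype kidneys: Utp15 with upper-quartile factors and without wildtype replicate 1, 7 or 8 or untreated PKD replicate 4, 8 or 12, Nop56 without wildtype replicate 6, 7 or 8, and Nop58 (adjusted p = 0.0381) and Nol8 without wildtype replicate 7.

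The direction between PKD and all wildtype kidneys reversed for 7 genes, none of them called in the fit of all kidneys. With wildtype libraries in 2 groups the log2 fold change became 0.0488 for Gar1, 0.0246 for Utp14a, -0.0181 for Nol6, 0.0575 for Ddx10, 0.0100 for Nop58 and 0.0838 for Gnl3. It became 0.0143 for Gar1 and 0.000975 for Gnl3 with upper-quartile factors, 0.0243 for Gnl3 with limma-voom, 0.0041 for Gar1 with no filter, 0.0120 for Gnl3 with the replicate block and -0.00179 for Bysl with counts thinned to the smallest library. With a kidney left out, it ran from -0.0722 to 0.0396 for Gar1, -0.0107 to 0.0646 for Bysl, -0.108 to 0.0148 for Utp14a, -0.0425 to 0.110 for Nol6, -0.196 to 0.0676 for Ddx10 and -0.0870 to 0.0699 for Gnl3. The cause was not tested. The wildtype set without the ending held 3 libraries, and Myc had as few as 35 reads in a library, which limits how small a difference could be seen.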

Other observations

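Other nephron markers changed beside the ribosome genes. Between PKD and all wildtype kidneys, 4 of 6 thick limb and distal tubule markers were lower, from Pvalb at -1.76 (SE 0.20) and Calb1 at -1.56 (SE 0.12) to Umod at 0.15 (SE 0.12), which was not called. Against each set alone 4 of the 6 were also lower. Umod was called higher against the set ending in R (0.49, adjusted p = 0.000126) and was not called against the other (-0.28, adjusted p = 0.0582). Of 7 collecting duct markers 3 were lower, with Slc4a1 of the intercalated cells at -1.47 (SE 0.14), and 1 was higher, Avpr2 at 0.38 (SE 0.09). Against the set ending in R 4 of the 7 were higher and 3 lower, and against the other none were higher and 4 lower. All 4 podocyte markers were lower over all wildtype kidneys, from Nphs1 at -0.53 (SE 0.11) to Podxl at -0.19 (SE 0.08). Against the set ending in R 2 of them were called lower, and against the other set 3, with Synpo at 0.28 there (adjusted p = 0.0503). Of 4 endothelial markers 2 were higher, Cdh5 at 0.70 and Pecam1 at 0.29, and 1 was lower, Kdr at -0.54. The endothelial counts were the same against each set. None of these 4 lists were called with salsalate. These log2 fold changes and their calls came from edgeR over all genes tested.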
